A study of Mus musculus with 15 samples.

Results

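Meis1, Pbx2, Pbx3 and Pknox1 encode homeodomain proteins that bind DNA together with Hox proteins. The 4 genes were followed by every probe set to which the array's platform annotation gives that single gene symbol, which made 9 of the 45141 probe sets in the table: 2 for Meis1, 3 for Pbx2, 1 for Pbx3 and 3 for Pknox1. RNA came from LSK cells, lineage-negative marrow cells with Sca-1 and Kit on their surface (blood stem cells and their first progeny are among them), and was hybridised to 15 arrays in 5 groups of 3. The groups were HOXB4 cells at 6, 12 and 20 weeks and GFP cells at 12 and 20 weeks after transplantation. HOXB4 cells carried the retroviral vector MSCV-HOXB4-ires-YFP, and GFP cells carried the empty vector MSCV-ires-GFP.

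In every group the transplanted marrow came from female C57Bl/6 mice treated with 5-FU (a drug that kills cycling cells), was transduced with retrovirus, and was given to lethally irradiated mice. The labels describe no period in culture before transplantation. Fluorescent LSK cells were then sorted, so the sorting colour differs along with the gene carried, and HOXB4 is driven by the viral vector rather than by its own locus. The labels do not say whether the arrays of a group came from separate mice, and the p-values then measure only how far these arrays spread, part of which may be technical. The sources disagree on the last time: the sample titles give 20 weeks, which is used here, and the series text gives 24 weeks. No GFP cells at 6 weeks were analysed here.

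Meis, Pbx and Pknox proteins belong to the TALE class of homeodomain proteins, named for 3 extra residues in the homeodomain. Meis and Pknox proteins pair with Pbx proteins, and the pairs join Hox proteins on DNA, which sharpens the choice of binding site and helps keep Pbx in the nucleus. In blood, Meis1 is known for its part in stem cell maintenance and megakaryocyte formation, and for speeding leukaemia when it is expressed with Hoxa9.

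The values are log2 intensities, and groups are compared only within a probe set. The arrays had like overall levels, with medians of 5.25 to 5.40, and replicate arrays correlated at 0.967 to 0.994 over all probe sets. Some known LSK genes were bright: Kit was brighter than 90.6% of probe sets, Cd34 than 96.3%, Gata2 than 97.4% and Flt3 than 93.5%. Others were dimmer, with group means of 3.965 to 4.345 for Mecom and 5.228 to 6.467 for Procr. Those of Slamf1 were 4.972 to 7.283 and those of Hlf 7.282 to 7.99, where the median over all probe sets was 5.32. The gene for Sca-1 was not analysed here. The probe set for mouse Hoxb4 was not higher in HOXB4 cells (log2 -0.30 ± 0.24 SE at 12 weeks, limma adjusted p = 0.549, and -0.15 ± 0.24 at 20 weeks, adjusted p = 0.796), and whether it reads the vector's transcript was not tested. Of the arrays of HOXB4 cells at 6 weeks, replicate 1 stood apart in a measure of RNA quality: the gap between 3' and 5' Gapdh control probe sets was 3.76, 1.68 and 1.71 log2 units on these 3 arrays, against 0.81 to 2.02 on the other 12 arrays. All 3 gaps at 6 weeks were wider than those of HOXB4 cells at 12 weeks (0.93 to 1.02). HOXB4 cells at 20 weeks had gaps of 1.21, 1.39 and 2.02. The same gap for actin control probe sets was -0.317, -1.019 and -0.865 on the arrays at 6 weeks, against -0.934 to -0.542 on the other 12 arrays. Only replicate 1 lay above that range.

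Meis1 was the only 1 of the 4 genes called between HOXB4 and GFP cells at either time. At 20 weeks 1 of its 2 probe sets was 2.26-fold higher in HOXB4 cells than in GFP cells, and the other was 1.90-fold higher without passing the threshold (adjusted p under 0.05 over all 45037 probe sets tested with limma, which 6.75% of them passed). At 12 weeks neither differed past the threshold, which 3.26% of all probe sets passed. Meis1 was also lower in GFP cells at 20 than at 12 weeks, by 2.81-fold on the first probe set (1.54% of all probe sets passed in that comparison).

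Meis1 (gene ID 17268) lies on chr11 from 18880428 to 19019651 in build GRCm38.p6. The window from 250 bases before to 50 bases after its RefSeq start, at chr11:19018920-19019219 on the minus strand, is shown because Meis1 carried the difference between the vectors and because Elf1, an ETS factor known to bind the Meis1 promoter, was among the genes followed below. Capitals mark the single match to the ETS motif CCGGAAG, read on the strand opposite to the printed one.
Meis1 promoter: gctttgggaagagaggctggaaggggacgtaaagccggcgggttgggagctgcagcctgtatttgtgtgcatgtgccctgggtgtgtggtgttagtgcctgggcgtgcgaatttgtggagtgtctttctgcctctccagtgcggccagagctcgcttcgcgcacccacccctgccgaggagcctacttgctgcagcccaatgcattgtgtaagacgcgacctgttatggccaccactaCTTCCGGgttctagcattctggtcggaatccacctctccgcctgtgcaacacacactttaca
The match spans bases 239 to 245 of the window, and it begins 12 bases before the start. Both strands were searched for 5 motifs, and 8.86% of the 32851 RefSeq windows of this length hold the ETS motif. The Meis site TGACAG (in 19.2% of windows), the Hox and Pbx site TGATNNAT (8.85%), the CREB motif TGACGT (7.51%) and the GC box GGGCGG (35.7%) were not found in these letters. The window is 58.3% G and C, against a median of 52.7% over all windows, and it lies inside the annotated span of the gene.

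Meis1 probe set 1450992_PM_a_at read 6.48, 8.0 and 7.18 in HOXB4 cells at 20 weeks, against 5.78, 6.12 and 6.24 in GFP cells at 20 weeks. All 3 HOXB4 arrays lay above all 3 GFP arrays, and the HOXB4 arrays were spread more widely, with 1 of them close to the GFP range. The means were 7.22 ± 0.76 in HOXB4 cells and 6.05 ± 0.24 in GFP cells (SD, n = 3 each). Their log2 difference was 1.17 ± 0.30 SE (95% interval 0.54 to 1.81, limma adjusted p = 0.0288). This SE rests on 1 spread for the probe set, shared by all 5 groups, and not on the unequal SDs of the groups compared. The higher mean rests in part on HOXB4 replicate 2: without it the difference was 0.79 and was no longer called (adjusted p = 0.0873). Over the 6 fits that each left out 1 of these arrays, the difference ran from 0.79 to 1.54 and passed the threshold in 2, without HOXB4 replicate 1 (1.54, limma adjusted p = 0.00294) or without GFP replicate 3 (1.27, adjusted p = 0.0383).

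The other Meis1 probe set, 1459423_PM_at, read 6.85, 7.89 and 7.27 in HOXB4 cells at 20 weeks, against 6.42, 6.29 and 6.52 in GFP cells. Here too the groups did not overlap, and HOXB4 replicate 2 was again the highest. The log2 difference was 0.92 ± 0.33 SE (95% interval 0.23 to 1.62), with an unadjusted p of 0.013 and a limma adjusted p of 0.114.

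**Figure D1:**
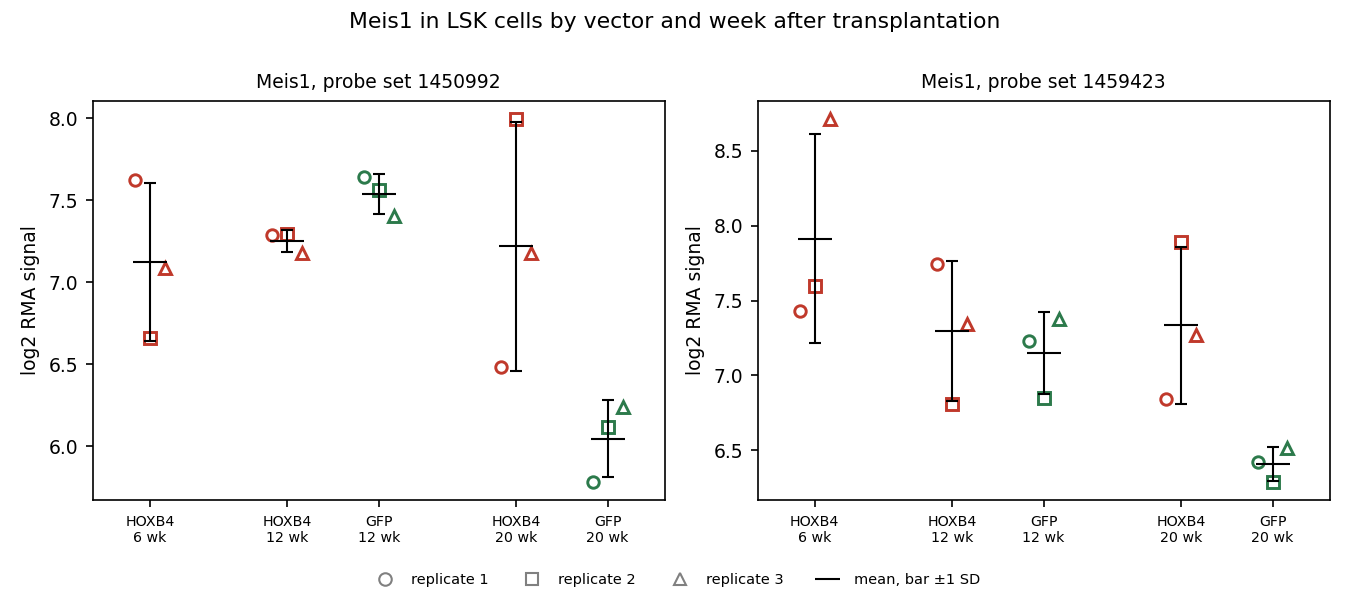
Log2 intensity (vertical axis) of the 2 Meis1 probe sets on each of the 15 arrays, by weeks after transplantation (horizontal axis), with HOXB4 cells in red and GFP cells in green. Circles, squares and triangles are replicates 1, 2 and 3, black dashes are group means and bars are 1 SD. On both probe sets the 3 HOXB4 arrays at 20 weeks lie above the 3 GFP arrays at 20 weeks.

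At 12 weeks 1450992_PM_a_at read 7.29, 7.30 and 7.18 in HOXB4 cells, against 7.64, 7.57 and 7.41 in GFP cells. Every HOXB4 array was below every GFP array, the opposite of 20 weeks, but the difference was small, at -0.28 ± 0.30 log2 (SE, limma adjusted p = 0.673). The mean level of the 8 LSK markers was 7.61 to 7.72 in HOXB4 cells at that time and 7.73 to 7.86 in GFP cells. Of the 8, 2 (Kit and Cd34) were called lower in HOXB4 cells and none higher (median -0.33), where 3.54% of all genes were called. Slamf1 and Gata2 lay above 0, at 1.64 and 0.63. On 1459423_PM_at the arrays read 7.74, 6.81 and 7.34 in HOXB4 cells and 7.23, 6.85 and 7.38 in GFP cells. These groups overlapped, with a difference of 0.15 ± 0.33 (limma adjusted p = 0.864). The vector effect at 20 weeks minus that at 12 weeks was 1.46 ± 0.42 for 1450992_PM_a_at (95% interval 0.56 to 2.36). Its unadjusted p was 0.00374 and its limma adjusted p was 0.231, so a change of the vector effect with time was not called. For 1459423_PM_at this quantity was 0.78 ± 0.46 (limma adjusted p = 0.69).

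Meis1 was lower in GFP cells at 20 than at 12 weeks. 1450992_PM_a_at averaged 6.05 ± 0.24 in the later GFP cells and 7.54 ± 0.12 in the earlier ones, at 12 weeks (SD, n = 3 each), a log2 difference of -1.49 ± 0.30 SE (95% interval -2.13 to -0.86, limma adjusted p = 0.0193). The later arrays were all below the earlier ones. Leaving out 1 GFP array at a time kept the difference between -1.59 and -1.36, yet it passed the threshold in 1 of 6 such fits, without the later replicate 3, with adjusted p between 0.0271 and 0.112. On 1459423_PM_at GFP cells averaged 6.41 ± 0.11 at 20 weeks and 7.15 ± 0.27 at 12 weeks, again without overlap, and the difference was -0.74 ± 0.33 (limma adjusted p = 0.37). This comparison uses the same GFP arrays at 20 weeks as the comparison of HOXB4 with GFP cells at that time, so the pair are not separate evidence that these arrays read low.

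In HOXB4 cells Meis1 did not change past the threshold between any times. Probe set 1450992_PM_a_at read 7.62, 6.66 and 7.09 at 6 weeks and averaged 7.12 ± 0.48 at 6 weeks, 7.25 ± 0.07 at 12 weeks and 7.22 ± 0.76 at 20 weeks (SD, n = 3 each). Probe set 1459423_PM_at read 7.43, 7.60 and 8.71 at 6 weeks and averaged 7.91 ± 0.70, 7.30 ± 0.47 and 7.33 ± 0.53 over the same times. Its difference at 12 against 6 weeks was -0.62 ± 0.33 (limma adjusted p = 0.346). From highest to lowest mean, the order was GFP 12, HOXB4 12, HOXB4 20, HOXB4 6 and GFP 20 weeks on 1450992_PM_a_at. On 1459423_PM_at it was HOXB4 6, HOXB4 20, HOXB4 12, GFP 12 and GFP 20 weeks. On both, GFP cells at 20 weeks came last, and the 4 other groups did not separate past the threshold in any comparison made. The 2 probe sets correlated at 0.57 (Pearson) and 0.50 (Spearman) over the 15 arrays.

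Marker genes of other cells differed between the same groups. At 20 weeks, 9 of 9 measured granulocyte-monocyte progenitor markers, 5 of 9 neutrophil markers and 4 of 6 monocyte markers fell in HOXB4 relative to GFP cells, with none called higher, and their median log2 differences were -2.69, -2.68 and -1.97. Of 12 megakaryocyte markers 7 were called higher in HOXB4 cells and none lower (median 1.20). Of 8 LSK and stem cell markers 3 were called higher and none lower (median 0.46), but Kit and Cd34 lay below 0, at -0.30 and -0.13. Over all 17097 genes 3.34% were called higher and 4.67% lower, and the median was 0.02. The mean level of the 9 neutrophil markers was 6.26 to 7.49 over the HOXB4 arrays and 9.18 to 9.27 over the GFP arrays at 20 weeks, and that of the 6 monocyte markers was 5.92 to 6.38 in HOXB4 cells and 7.89 to 8.30 in GFP cells. The mean of the 8 LSK markers was 7.24, 8.02 and 7.75 on HOXB4 replicates 1, 2 and 3, the same order as Meis1 on 1450992_PM_a_at, and 6.96 to 7.08 in GFP cells. The order was not particular to the LSK list: mast cell and basophil markers shared it (6.39, 7.37 and 6.55). Granulocyte-monocyte progenitor, neutrophil and monocyte markers had the reverse order. In bulk RNA fewer cells of a type and less RNA per cell cannot be told apart, and the part of these markers in the Meis1 result was not tested.

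**Figure D2:**
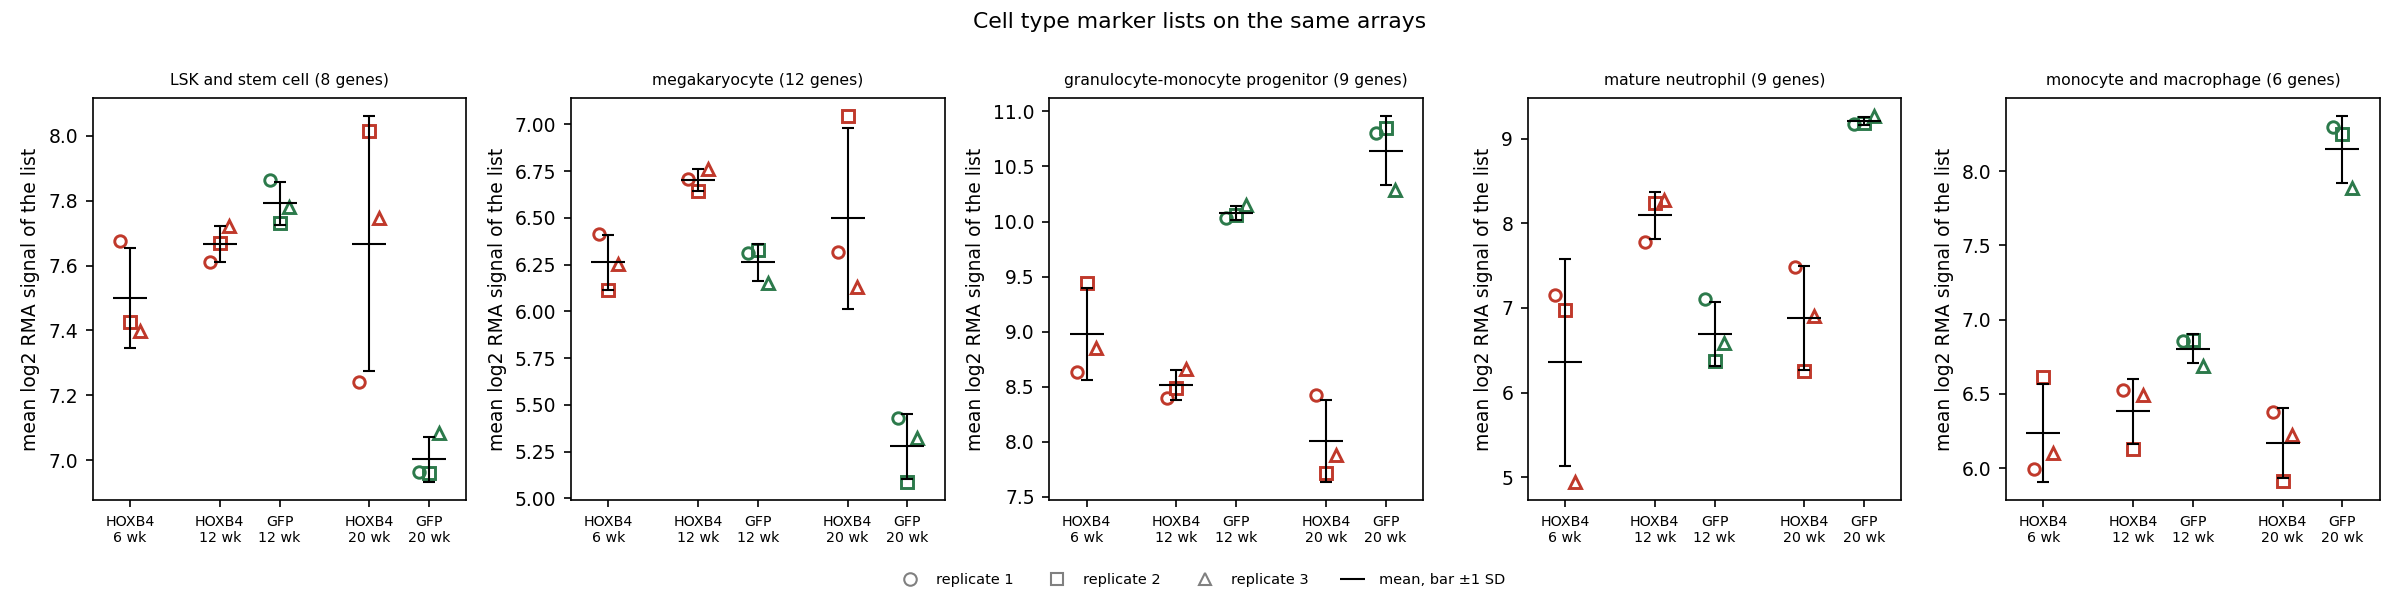
Mean log2 intensity (vertical axis) of marker gene lists, 1 point per array, by weeks after transplantation, with HOXB4 cells in red and GFP cells in green. Symbols, dashes and bars are as for Meis1. GFP cells at 20 weeks are lowest for the LSK list, at 6.96 to 7.08, and highest for the neutrophil list, at 9.18 to 9.27.

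Marker lists also differed within GFP cells between the times. At 20 weeks, 5 of 9 neutrophil markers and 4 of 6 monocyte markers were higher than at 12 weeks (medians 3.07 and 1.27), while 4 of 12 megakaryocyte markers, 3 of 8 erythroid markers and 1 of 8 LSK markers were lower. Of the 9 granulocyte-monocyte progenitor markers none was called (median 0.60). Among 8 B cell markers 1 was higher (median 1.745), and among 7 T cell markers 1 was lower (median 0.285). The median over the LSK list was -0.75, and over all genes 1.04% were called higher and 0.848% lower. The part of these shifts in the lower Meis1 level of GFP cells at 20 weeks was not tested.

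Pbx2 did not differ past the threshold between HOXB4 and GFP cells, but it was lower in HOXB4 cells at 6 weeks than later on 2 of its 3 probe sets. In all, 3.07% of probe sets passed at 12 against 6 weeks and 3.77% at 20 against 6 weeks. Pbx2 is a broadly expressed Pbx protein and a DNA-binding partner of Meis1. The later levels were higher by 1.66 to 1.70-fold in the 3 differences called, and the remaining one, on 1418894_PM_s_at at 12 against 6 weeks, was smaller and not called. The third probe set, 1418893_PM_at, did not share the change past the threshold.

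Pbx2 (gene ID 18515) lies on chr17 from 34592259 to 34597400 in GRCm38.p6. Its start window, at chr17:34592009-34592308 on the plus strand, is shown beside that of Meis1. Whether the motifs in either window bear on the levels of the 2 genes was not tested. Capitals mark the 2 matches to the GC box GGGCGG, both read on the strand opposite to the printed one.
Pbx2 promoter: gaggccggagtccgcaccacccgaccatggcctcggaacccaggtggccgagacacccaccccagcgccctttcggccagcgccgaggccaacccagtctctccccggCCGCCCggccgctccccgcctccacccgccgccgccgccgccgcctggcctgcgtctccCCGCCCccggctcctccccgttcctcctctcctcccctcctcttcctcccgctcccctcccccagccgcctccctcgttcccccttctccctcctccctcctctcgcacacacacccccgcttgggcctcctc
The matches begin 142 and 83 bases before the start, and the window is 76% G and C. The other 4 motifs, ETS included, were not found in it. RefSeq windows for Pbx3 and Pknox1 were not used here.

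In HOXB4 cells Pbx2 probe set 1449261_PM_at read 6.48, 6.86 and 6.68 at 6 weeks, 7.35, 7.31 and 7.58 at 12 weeks, and 7.36, 7.23 and 7.64 at 20 weeks. Every array at 6 weeks lay below every later HOXB4 array. At 12 against 6 weeks the log2 difference was 0.74 ± 0.17 SE (95% interval 0.38 to 1.10, limma adjusted p = 0.0322). At 20 against 6 weeks it was 0.73 ± 0.17 (0.37 to 1.10, limma adjusted p = 0.0292), and 20 against 12 weeks gave -0.00 ± 0.17.

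In the same cells 1418894_PM_s_at read 6.95, 7.35 and 6.85 at 6 weeks, 7.52, 7.63 and 7.76 at 12 weeks, and 7.86, 7.78 and 7.81 at 20 weeks. The 6-week arrays were again the lowest of the HOXB4 arrays. The difference at 20 against 6 weeks was 0.77 ± 0.18 (95% interval 0.38 to 1.16, limma adjusted p = 0.0335), and at 12 against 6 weeks it was 0.58 ± 0.18 (limma adjusted p = 0.0972). Probe set 1418893_PM_at averaged 7.63 ± 0.23, 7.82 ± 0.09 and 7.89 ± 0.08 at the 3 times (SD, n = 3 each). Its differences from 6 weeks were 0.19 at 12 weeks (limma adjusted p = 0.483) and 0.26 ± 0.13 at 20 weeks (interval -0.02 to 0.54, limma adjusted p = 0.277).

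**Figure D3:**
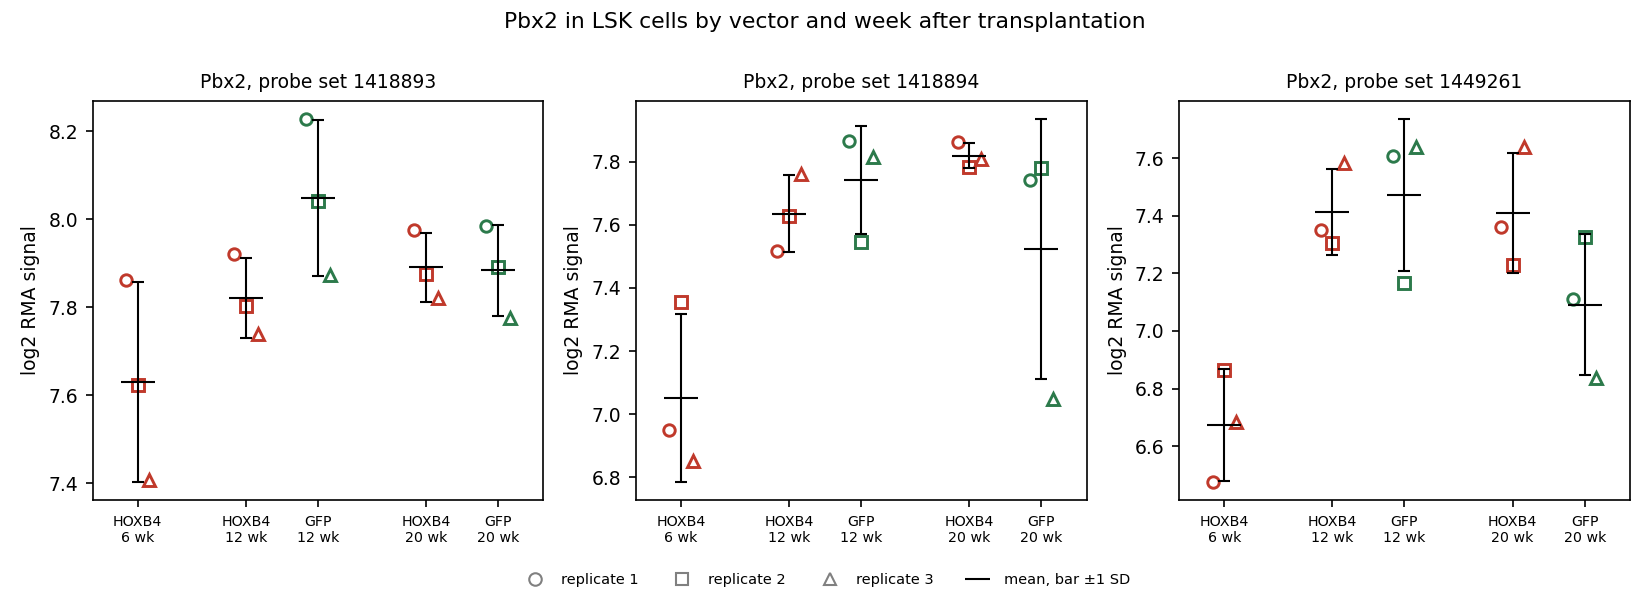
Log2 intensity (vertical axis) of the 3 Pbx2 probe sets on each array, by weeks after transplantation, with HOXB4 cells in red and GFP cells in green, and symbols, dashes and bars as for Meis1. On 1449261_PM_at the HOXB4 arrays at 6 weeks read 6.48 to 6.86, and the later HOXB4 arrays read 7.23 to 7.64.

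The 6-week arrays include the one with the widest Gapdh gap, and no GFP arrays at 6 weeks were compared. All 6-week arrays had wider Gapdh gaps (1.68 to 3.76) than the 12-week HOXB4 arrays (0.93 to 1.02). Leaving out the array with the widest gap does not remove that difference. The actin gaps were -0.317, -1.019 and -0.865 at 6 weeks, against -0.934 to -0.918 on the 12-week HOXB4 arrays. By actin, replicates 2 and 3 at 6 weeks thus lay on either side of the 12-week HOXB4 arrays. The part of RNA quality in these Pbx2 differences was not tested beyond leaving that array out. Cell markers differed in the same comparisons. At 12 against 6 weeks 2 of 9 neutrophil markers (median 2.54), 1 of 8 B cell markers (median 1.41) and 1 of 7 T cell markers were higher. The T cell call was Lat, and the median of that list was 0.07. Of 7 mast cell markers 1 was lower, where 2.29% of genes were called. At 20 against 6 weeks 3 of 8 B cell markers were higher (median 1.84), while 4 of 9 granulocyte-monocyte progenitor markers (median -1.34) and 1 of 7 mast cell markers were lower, where 4.05% of genes were called. In both comparisons no LSK, megakaryocyte, monocyte or erythroid marker was called, and the part of these markers in the Pbx2 result was not tested. Without HOXB4 replicate 1 at 6 weeks, the array with the gap of 3.76, the difference on 1449261_PM_at was 0.64 at 12 against 6 weeks (limma adjusted p = 0.0896) and 0.64 at 20 against 6 weeks (adjusted p = 0.0739). On 1418894_PM_s_at it was 0.72 at 20 against 6 weeks (adjusted p = 0.0746). Of the 6 fits that each left out 1 array, these 3 differences passed in 1, 2 and 1, each time including the fit without HOXB4 replicate 2 at 6 weeks (0.83, 0.83 and 0.92).

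Between vectors, 1449261_PM_at averaged 7.41 ± 0.21 in HOXB4 cells and 7.09 ± 0.25 in GFP cells at 20 weeks (SD, n = 3 each), a difference of 0.32 ± 0.17 SE (95% interval -0.04 to 0.68, limma adjusted p = 0.313). Probe set 1418894_PM_s_at read 7.86, 7.78 and 7.81 in HOXB4 cells, against 7.74, 7.78 and 7.05 in GFP cells. The HOXB4 arrays all lay above the GFP arrays, but only narrowly above 2 of them, and the difference was 0.30 ± 0.18 (interval -0.10 to 0.69, limma adjusted p = 0.401). Probe set 1418893_PM_at averaged 7.89 ± 0.08 in HOXB4 cells and 7.88 ± 0.10 in GFP cells, a difference of 0.01 with a 95% interval of -0.27 to 0.28. At 12 weeks the 3 differences were -0.23, -0.11 and -0.06 for 1418893_PM_at, 1418894_PM_s_at and 1449261_PM_at (limma adjusted p = 0.382, 0.814 and 0.9). HOXB4 cells averaged 7.82, 7.64 and 7.41 there, against 8.05, 7.74 and 7.47 in GFP cells. In GFP cells at 20 against 12 weeks they differed by -0.16, -0.22 and -0.38, none of which was called. On all 3 Pbx2 probe sets HOXB4 cells at 6 weeks had the lowest mean of the 5 groups.

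Pbx3 was not called in any comparison. Pbx3 is a Pbx family protein known as a partner of Meis1 and Hoxa9 in leukaemia. The gene (gene ID 18516) lies on chr2 from 34171457 to 34372045, and it has the single probe set 1421193_PM_a_at. This read 5.06, 6.37 and 5.46 in HOXB4 cells at 20 weeks, against 4.90, 5.32 and 5.16 in GFP cells. The groups overlapped, with HOXB4 replicate 2 far above the rest, and the difference was 0.50 ± 0.26 SE (95% interval -0.05 to 1.05, limma adjusted p = 0.297).

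At 12 weeks Pbx3 read 5.64, 5.58 and 5.47 in HOXB4 cells and 5.46, 5.63 and 5.59 in GFP cells, a difference of 0.00 ± 0.26 (interval -0.55 to 0.55). In GFP cells all 3 arrays at 20 weeks lay below all 3 at 12 weeks, but the difference of -0.43 ± 0.26 was not called (limma adjusted p = 0.571). The 6-week HOXB4 arrays read 5.82, 5.14 and 5.72. The means of Pbx3 lay between 5.56 and 5.63 in the other 4 groups, and at 5.13 ± 0.21 in GFP cells at 20 weeks (SD, n = 3). The probe set was rather dim: it averaged 5.49 over the 15 arrays, brighter than 53% of probe sets, where the median was 5.32. The lack of calls therefore does not show unchanged expression.

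Pbx3 followed 1 of the Meis1 probe sets closely from array to array and the other less so. It correlated with Meis1 probe set 1450992_PM_a_at at a Pearson r of 0.85 and a Spearman rho of 0.76 over the 15 arrays, and at 0.93 for the deviations from the group means. With Meis1 probe set 1459423_PM_at the same values were 0.60, 0.68 and 0.49. This is a description of arrays that share their groups and any difference in RNA quality or cell makeup. Pbx2 probe sets 1418894_PM_s_at and 1449261_PM_at correlated at 0.89 (Spearman 0.85), whereas 1418893_PM_at and 1449261_PM_at correlated at 0.47 (Spearman 0.31), so the probe sets of Pbx2 also disagree among themselves.

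Pknox1, also called Prep1, was not called in any comparison. It is a TALE protein that competes with Meis1 for Pbx partners. The gene (gene ID 18771) lies on chr17 from 31564722 to 31607693. Probe set 1421233_PM_at read 8.0, 7.87 and 8.11 in HOXB4 cells at 20 weeks, against 7.78, 7.82 and 7.41 in GFP cells. The groups did not overlap, and the difference was 0.32 ± 0.13 SE (95% interval 0.05 to 0.60, unadjusted p = 0.0254, limma adjusted p = 0.168).

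The other 2 Pknox1 probe sets gave smaller differences at 20 weeks. Probe set 1437470_PM_at averaged 6.42 ± 0.32 in HOXB4 cells and 6.37 ± 0.26 in GFP cells (SD, n = 3 each), and 1450172_PM_at averaged 8.02 ± 0.15 in HOXB4 cells and 8.08 ± 0.15 in GFP cells. Their limma adjusted p-values were 0.917 and 0.891. At 12 weeks the 3 differences were -0.05, -0.13 and 0.00 for 1421233_PM_at, 1437470_PM_at and 1450172_PM_at. HOXB4 cells averaged 7.80, 6.38 and 8.21 there, against 7.85, 6.51 and 8.21 in GFP cells.

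Over time in HOXB4 cells, 1450172_PM_at read 7.46, 8.06 and 7.51 at 6 weeks, 8.10, 8.27 and 8.26 at 12 weeks, and 8.17, 8.0 and 7.88 at 20 weeks. The 12-week arrays were all above the 6-week arrays, with a difference of 0.54 ± 0.16 (95% interval 0.19 to 0.88, limma adjusted p = 0.0842). Without HOXB4 replicate 2 at 6 weeks it was 0.73 and was called (limma adjusted p = 0.0126). No other alternative fit called it, and that fit keeps replicate 1, the array with the Gapdh gap of 3.76. The 6-week arrays are the same on which Pbx2 read low, and all had wider Gapdh gaps than the 12-week HOXB4 arrays. The actin gap of replicate 2 at 6 weeks was not wider than theirs.

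**Figure D4:**
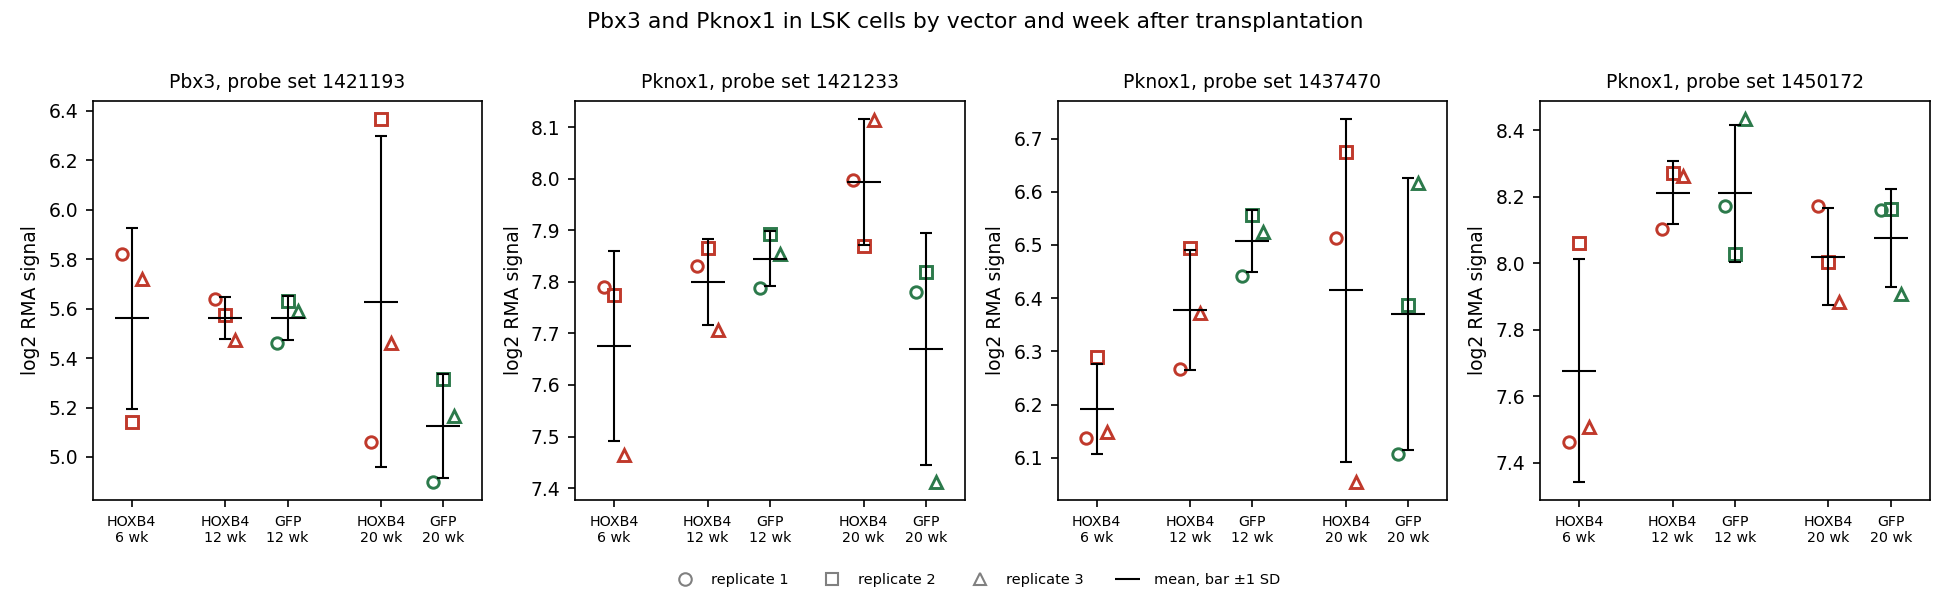
Log2 intensity (vertical axis) of the Pbx3 probe set and the 3 Pknox1 probe sets on each array, by weeks after transplantation, with HOXB4 cells in red and GFP cells in green, and symbols, dashes and bars as for Meis1. Pbx3 in HOXB4 cells at 20 weeks runs from 5.06 to 6.37, and none of the 4 probe sets was called in any comparison.

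Over the 9 probe sets together, 1 was called between HOXB4 and GFP cells at 20 weeks, while 6.75% of all 45037 probe sets were called. In that comparison 8 of 9 differences were above 0, 4 of 9 had groups that did not overlap (23.5% of all probe sets), and the median was 0.32 against 0.04 over all probe sets. At 12 weeks limma called 0 of 9, and 0 had an unadjusted p under 0.05, where 3.26% of all probe sets were called. There 1 of 9 had groups without overlap (32.2% of all), and the median was -0.06. For the mean of both times 0 of 9 were called and 1 had an unadjusted p under 0.05 (12.9% of all called). For the difference between the vector effects at the 2 times 0 of 9 were called and 1 had an unadjusted p under 0.05 (0.289% of all called).

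In GFP cells 1 of 9 was called at 20 against 12 weeks (1.54% of all called), all 9 differences were below 0, 3 of 9 had groups that did not overlap (20.8% of all), and the median was -0.22 against -0.02 over all probe sets. In HOXB4 cells 1 of 9 was called at 12 against 6 weeks (3.07% of all) and 2 of 9 at 20 against 6 weeks (3.77% of all). Groups did not overlap for 3 of 9 in each (22.4% and 18.6% of all). At 20 against 12 weeks limma called 0 of 9, with 0 at an unadjusted p under 0.05 (0.369% of all called). With 1 or 2 calls among 9 probe sets, some of which share a gene, these counts do not set the 4 genes apart from the whole table. The counts by sign have the same limit, and the share of all probe sets with each sign was not analysed here. The vector comparison at 20 weeks and the GFP comparison over time also share the GFP arrays at 20 weeks.

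**Figure D5:**
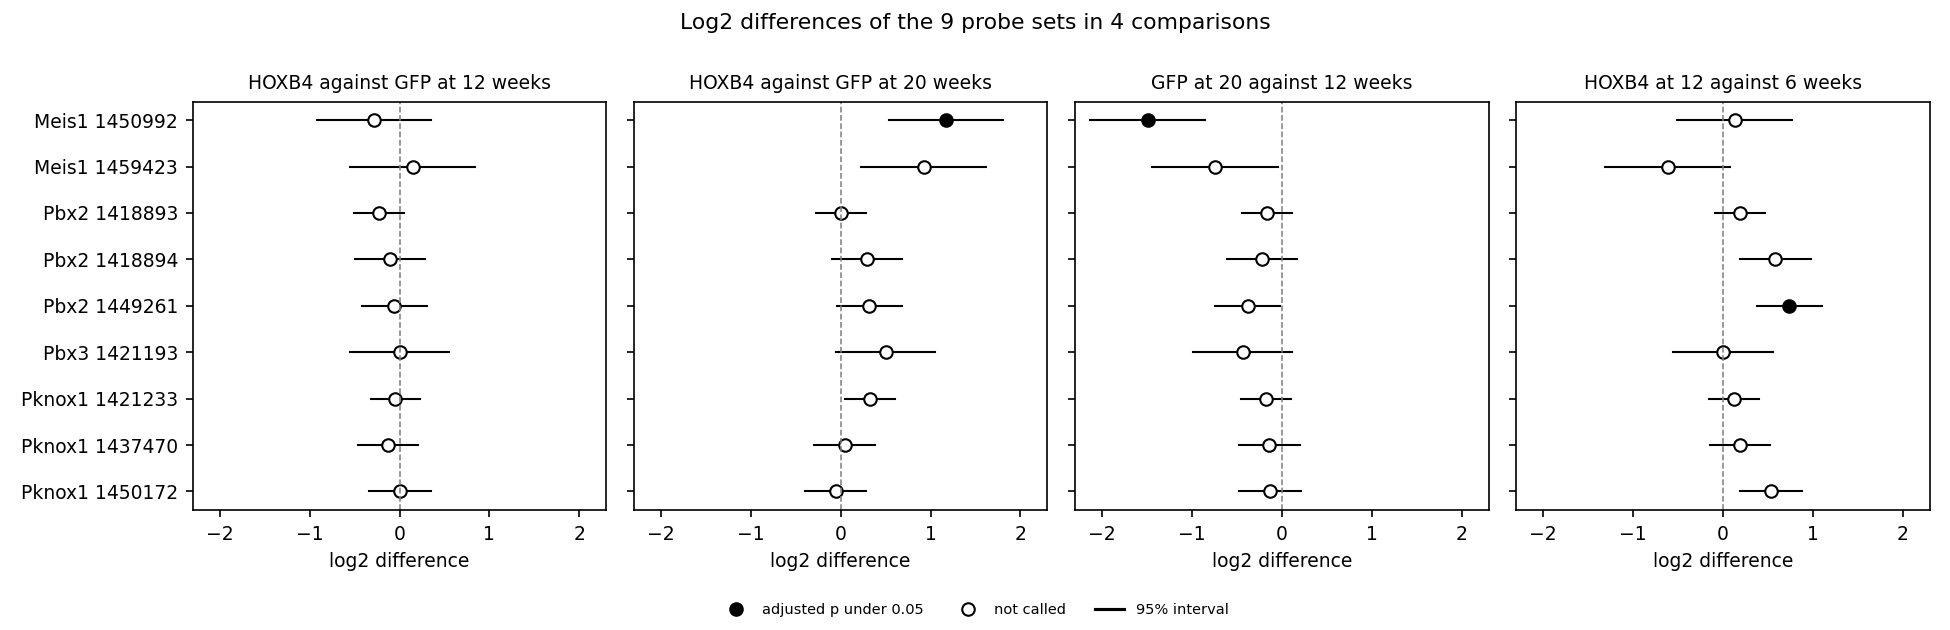
Log2 differences (horizontal axis) with 95% intervals for the 9 probe sets (vertical axis) in 4 comparisons: HOXB4 against GFP at 12 weeks, the same at 20 weeks, GFP at 20 against 12 weeks, and HOXB4 at 12 against 6 weeks. Filled points passed the adjusted threshold. The filled points are Meis1 1450992_PM_a_at at 1.17 and -1.49 and Pbx2 1449261_PM_at at 0.74.

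Among other TALE genes, 13 were followed, each by its brightest probe set. Tgif1, a TALE repressor that limits TGF-beta signalling, was lower in HOXB4 cells at 12 weeks, at 7.42 ± 0.17 in HOXB4 cells and 8.0 ± 0.20 in GFP cells (SD, n = 3 each). Its difference was -0.57 ± 0.14 SE (limma adjusted p = 0.0433), and at 20 weeks it was -0.29 (adjusted p = 0.276). It was the only 1 of 13 called at 12 weeks (3.54% of genes were called), and limma called 0 of 13 at 20 weeks (8.01% of genes). In GFP cells at 20 against 12 weeks 0 of 13 were called (1.89% of genes).

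The closest relatives of the members showed small differences. Meis2 differed by 0.19 at 12 weeks and 0.10 at 20 weeks between HOXB4 and GFP cells, Meis3 by 0.02 and -0.16, Pbx4 by 0.05 and 0.17, and Pknox2 by -0.01 and -0.07. None of these was called. Group means were low for Meis2 (3.61 to 3.84), Meis3 (4.32 to 4.48) and Pknox2 (4.68 to 4.95), below the median of 5.32 over all probe sets. Pbx4 was brighter, at 6.38 to 6.72. Whether the dim genes were expressed was not tested, so their small differences do not show unchanged expression. Tgif2 differed by -0.25 and -0.02, and by -0.41 in GFP cells at 20 against 12 weeks (limma adjusted p = 0.331). The 6 Irx genes and Mkx, which act mostly in the patterning of other tissues, lay between -0.16 and 0.08 at 12 weeks and were not called.

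The Hox genes are the DNA-binding partners of the members. Of 9 measured HoxA genes 1 was called at 20 weeks, where 8.01% of all genes were. This gene, Hoxa9, which forms complexes with Meis1 and Pbx proteins, averaged 8.06 ± 0.46 in HOXB4 cells and 7.25 ± 0.20 in GFP cells (SD, n = 3 each), a difference of 0.80 ± 0.18 SE (limma adjusted p = 0.015). Like Meis1, Hoxa9 was lower in GFP cells at 20 than at 12 weeks (-1.25 ± 0.18, limma adjusted p = 0.00275) and differed little between vectors at 12 weeks (-0.09, adjusted p = 0.846). Both comparisons at 20 weeks share the GFP arrays. The median over the HoxA genes was 0.31 at 20 weeks and -0.15 at 12 weeks.

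Of 10 HoxB genes none was called at 20 weeks (8.01% of all genes were). At 12 weeks, where 3.54% of all genes were called, 2 of the 10, Hoxb2 and Hoxb5, were lower in HOXB4 cells (-0.73, limma adjusted p = 0.0148, and -0.87, adjusted p = 0.0144). Both were dim: Hoxb2 averaged 3.92 in HOXB4 and 4.65 in GFP cells, and Hoxb5 4.55 and 5.42. The median over all probe sets was 5.32. Hoxb5, known as a marker of long-term stem cells, was also lower in GFP cells at 20 than at 12 weeks (-0.94 ± 0.17, adjusted p = 0.0111).

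Of 10 measured genes that regulate or bind TALE proteins, 2 were higher in HOXB4 cells at 20 weeks and none was lower (3.34% and 4.67% of all genes). Pbxip1, which binds Pbx proteins and hinders their work with Hox proteins, was higher by 0.78 ± 0.16 log2 (SE, limma adjusted p = 0.00771). Zfp462, which encodes a zinc finger protein, was higher by 0.70 ± 0.17 (adjusted p = 0.0241). Elf1 was higher by 0.44 without passing the threshold (adjusted p = 0.0644), and in HOXB4 cells it was higher at 20 than at 6 weeks (0.50 ± 0.13, adjusted p = 0.0476, where 4.05% of genes were called). At 12 weeks 0 of the 10 were called.

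Of 17 measured genes linked to Meis1 or to Hoxa9 with Meis1 in earlier work, 5 were higher in HOXB4 cells at 20 weeks and none was lower (3.34% and 4.67% of all genes). Pf4, the platelet chemokine gene that Meis1 and Pbx proteins activate in megakaryocytes, was higher by 3.56 ± 0.44 log2 (SE, limma adjusted p = 0.000226). Tal1 and Gata2, transcription factors of stem and megakaryocytic cells, were higher by 1.43 and 1.35 (adjusted p = 0.00459 and 0.0103). Flt3, a growth factor receptor, was higher by 1.41 (adjusted p = 0.0174), and Msi2, an RNA-binding protein of stem cells, by 1.08 (adjusted p = 0.00291). The median over the 17 genes was 0.07, against 0.02 over all genes, and 12 of the 17 were not called.

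At 12 weeks, where 3.54% of all genes were called, 2 of the 17 fell, Cd34 by 0.75 and Ccnd1 by 0.77 on the log2 scale (limma adjusted p = 0.00918 and 0.0482). In GFP cells at 20 against 12 weeks 4 of the 17 were lower and none higher (0.848% and 1.04% of all genes). They were Pf4 (-2.44), Tal1 (-1.52), Msi2 (-1.05) and Cd34 (-0.80), with limma adjusted p between 0.00704 and 0.0102. Of the genes named, Pf4 also stands in the megakaryocyte list, and Flt3, Cd34 and Gata2 in the LSK list. Other genes are shared too, such as Hlf with the LSK list.

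The genes with the most similar pattern to each member were found by Pearson correlation over the 15 arrays among 9458 brighter genes, as a description. For Meis1, on 1459423_PM_at, they were Nktr (0.90), Cd99l2 (0.88), Tmprss5 (0.85), Ddit3 (0.84) and Arhgef12 (0.84). For Pbx2, on 1418893_PM_at, they were Socs4 (0.89), Rab11fip5 (0.88), Uhmk1 (0.85), Fem1c (0.84) and Exosc3 (0.84). For Pbx3 they were Ufsp1 (0.87), Mfn1 (0.85), Tmem40 (0.85), Zfp113 (0.85) and Nupr1 (0.84). Pknox1, on 1450172_PM_at, had the closest matches, Rtf2 (0.96), Tomm22 (0.95), Gins2 (0.95), Hcfc1 (0.94) and Pfdn6 (0.93). The 4 sets of 5 genes had no gene in common.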

How the data were processed

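RNA from sorted LSK cells (20 ng, amplified) was hybridised to 1-colour arrays, 1 per sample. The deposited values are log2 intensities. Per the submitters' processing notes, the authors used RMA and Partek 6.5. Intensities before normalization were not used here. No value was transformed further. After 104 control probe sets were left out, limma 3.58.1 in R 4.3.3 fitted 1 mean per group over 45037 probe sets and all 15 arrays, with empirical Bayes moderation (10 residual and 4.31 prior degrees of freedom). Benjamini-Hochberg adjustment ran over all of them within each of 8 comparisons, and adjusted p under 0.05 was called. Each SE, interval and p-value uses 1 spread per probe set, shared by all 5 groups, even where the SDs of the groups compared differ. With 3 arrays a group, an exact permutation test cannot go below a two-sided p of 0.1, so none is given; the number of arrays limits the precision.

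Names came from the platform annotation: 28898 probe sets had 1 symbol, 551 had several and 15692 were not listed, and 28689 matched a GRCm38.p6 gene table by gene ID. Where the probes lie within each transcript was not analysed here. All probe sets of the 4 genes are reported. Lists use each gene's brightest probe set, and name the genes called (otherwise at most the 4 with smallest p) and all measured TALE relatives; the 5 genes most like each member were taken by correlation. The members and lists were chosen with earlier results of these data known. Promoters are RefSeq windows, matched for 2 of 4 genes. Scripts were tested on simulated data. Replicate numbers were checked for pairing and do not pair the arrays. Alternatives covered array weights, moderation, normalization, filters, the samples in the fit, a replicate block and leaving out each array.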

Additional observations from a re-analysis of the deposited data

Results flagged for a closer look

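For Meis1 probe set 1450992_PM_a_at, all 3 HOXB4 arrays lay above all 3 GFP arrays at 20 weeks (difference 1.17 ± 0.30 SE) and below all 3 at 12 weeks (-0.28 ± 0.30). The 12-week difference was not called (limma adjusted p = 0.673), and groups did not overlap for 23.5% of all probe sets at 20 weeks and for 32.2% at 12 weeks. The difference between the vector effects was 1.46 ± 0.42 log2, with a limma unadjusted p of 0.00374 and adjusted p of 0.231, which does not pass the threshold. On the other Meis1 probe set, 1459423_PM_at, both differences were above 0, at 0.92 and 0.15. The mean level of the 8 LSK markers ran the same way as 1450992_PM_a_at, though not every marker of the list did. At 20 weeks it was 7.24 to 8.02 for HOXB4 and 6.96 to 7.08 for GFP arrays. At 12 weeks it was 7.61 to 7.72 for HOXB4 and 7.73 to 7.86 for GFP arrays. Within the list, Kit and Cd34 were lower in HOXB4 cells at 20 weeks (-0.30 and -0.13, not called). Slamf1 and Gata2 were higher at 12 weeks (1.64 and 0.63, not called). For the mean of both times, where 12.9% of all probe sets were called, Kit and Cd34 were called lower and Slamf1 and Gata2 higher. The part of the LSK markers in the result was not tested.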

How the results depend on the processing

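The counts of members called rest on few calls. With only the groups compared in the fit, limma called 0 of 9 probe sets between HOXB4 and GFP cells at 20 weeks. It called 2 in GFP cells at 20 against 12 weeks, and 0 in HOXB4 cells at 12 against 6 and at 20 against 6 weeks. Such a fit has fewer arrays and takes the spread from the groups compared alone. With 1 probe set per gene, and likewise with no moderation, all of these counts were 0; the first of these leaves out the probe sets that were called. Array weights gave 1 call (Meis1 1450992_PM_a_at) for the difference between the vector effects and 0 at 20 against 6 weeks, and the cause was not tested. Leaving out 1 array at a time gave 0 to 1 calls between vectors at 20 weeks, for the mean of both times, for the difference between the effects and for GFP cells over time, 0 to 3 for HOXB4 cells at 12 against 6 and at 20 against 6 weeks, and 0 for the other comparisons. The call for the mean of both times, and that for the difference, came without HOXB4 replicate 1 at 20 weeks (Meis1 1450992_PM_a_at, 0.63 and 1.83, adjusted p = 0.0321 and 0.0367), and the 3 calls came without HOXB4 replicate 2 at 6 weeks.

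Of the 9 other alternatives for each called difference, Meis1 1450992_PM_a_at passed in 7 at 20 weeks (1.12 to 1.27, adjusted p 0.00749 to 0.139) and in 8 for GFP cells over time (-1.62 to -1.41). Pbx2 1449261_PM_at passed in 7 at 12 against 6 weeks and in 6 at 20 against 6 weeks, and 1418894_PM_s_at in 6. Of 1220 values of single probe sets under all alternatives, none changed sign with a call on either side, 34 lost a call, 7 gained one, and 58 that were called neither way changed sign. Same-numbered arrays did not deviate together (r from -0.15 to 0.106, over 0.1 for 1 of 30 pairs). A replicate block changed no count of calls: 1 at 20 weeks between vectors, 1 for GFP cells over time, 1 at 12 against 6 weeks and 2 at 20 against 6 weeks. Signal over background was not analysed here.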

Other observations

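Other marker lists on the same arrays gave these values. At 12 weeks, where Meis1 was not called, 8 of 9 granulocyte-monocyte progenitor markers fell in HOXB4 relative to GFP cells (median log2 -1.53) and 7 of 8 B cell markers were higher (median 3.38), where 3.54% of all genes were called. At 20 weeks 2 of 8 B cell markers (median 2.15), 2 of 8 erythroid markers (median 0.22) and 1 of 7 T cell markers were higher and none lower. The T cell call was Lat (1.57), while the median of that list lay below 0, at -0.13. Of 7 mast cell and basophil markers 2 were higher and 2 lower, against 3.34% of all genes higher and 4.67% lower. The part of these lists in the levels of the 4 cofactor genes was not tested.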
